A study of Mus musculus and Homo sapiens with 9 samples.

Results

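The p53 negative feedback genes are Mdm2, Mdm4, Ppm1d, Ccng1 and Rps27l, 5 of the 21887 mouse protein-coding genes on placed chromosomes. They were chosen by name, as genes that restrain p53 or act on Mdm2. Binding was measured by chromatin immunoprecipitation and sequencing (ChIP-seq) in B16, a mouse melanoma cell line kept in culture without a labelled treatment. Peaks came from 2 libraries of B16 cells in which the endogenous Tdg gene carries an HA tag (labelled Tdg HA knockin). One library was made with an HA antibody, which pulls down thymine DNA glycosylase (TDG), and the other with a p53 antibody. The labels do not say whether the tagged cells were 1 clone. Input, IgG, the HA antibody in untagged cells, the p53 antibody in Trp53 knockout cells and 3 samples of human H1299 cells belong to the series and were not used here. Each antibody is therefore represented by 1 library with no replicate, and whether a peak depends on the tag or on p53 was not tested.

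The transcription factor p53 switches on several genes whose products restrain it or act on Mdm2. Mdm2 is the ubiquitin ligase that marks p53 for destruction, and Mdm4 is its partner, which binds and blocks the p53 activation domain. The phosphatase encoded by Ppm1d (Wip1) removes activating phosphates from p53 and from the kinases that signal DNA damage. Cyclin G1, encoded by Ccng1, brings the phosphatase PP2A to Mdm2, and Rps27l encodes a ribosomal S27-like protein that binds Mdm2. TDG removes thymine mispaired with guanine and oxidised forms of methylcytosine, mainly at CpG dinucleotides.

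All 5 genes had a peak in at least 1 of the lists. A TDG peak was assigned where its summit lay inside the gene or within 1 kb of either gene end. This gave 2 of the 5, Ppm1d and Ccng1, whereas the share over all protein-coding genes was 14.8% (3237). A p53 peak was assigned where its summit lay inside the gene or had the gene's end as its nearest protein-coding gene end. That gave 4 of the 5, Mdm2, Mdm4, Ccng1 and Rps27l, compared with 0.512% of all protein-coding genes (112). Peaks of both kinds occurred at Ccng1 alone among the 5, and at 0.142% of all protein-coding genes (31). Each gene had at most 1 peak per list. The genes were named as parts of the p53 response, so these counts describe them and were not tested.

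**Figure D1:**
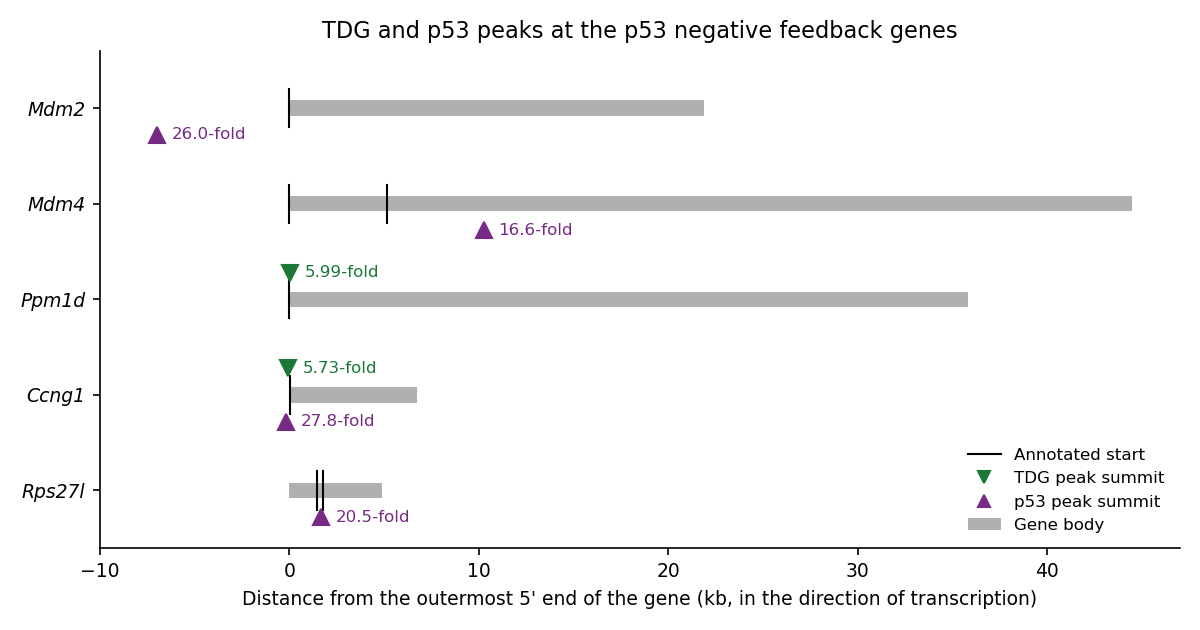
Position of each TDG and p53 peak summit (triangles, with the authors' fold enrichment) along the 5 genes, in kb from the outermost 5′ end of the gene in the direction of transcription. The grey bars are gene bodies and the black ticks are annotated starts. The TDG summits at Ppm1d and Ccng1 sit at the gene start, while the p53 summits range from 6992 bases before the gene at Mdm2 to 10262 bases inside it at Mdm4.

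The sequences that carry these peaks are shown first for the 3 genes whose summits fall in an annotated promoter window, which runs from 250 bases before to 50 bases after a RefSeq start. All sequences are from RefSeq (GRCm38.p6, the same coordinates as mm10) and read 5′ to 3′ along the gene's own strand. In the Ccng1 and Rps27l sequences, capitals mark the best match to the p53 response element, which is a pair of half-sites of 10 bases. In the Ppm1d sequence they mark a cyclic AMP response element, the site read by CREB and ATF factors.
Ccng1, chr11:40755287-40755536, minus strand: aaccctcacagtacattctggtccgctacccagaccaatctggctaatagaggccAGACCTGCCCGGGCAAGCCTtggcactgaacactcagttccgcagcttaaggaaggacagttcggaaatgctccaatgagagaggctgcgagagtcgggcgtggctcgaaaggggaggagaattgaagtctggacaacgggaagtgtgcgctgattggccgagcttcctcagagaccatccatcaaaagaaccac
Rps27l, chr9:66946259-66946359, plus strand: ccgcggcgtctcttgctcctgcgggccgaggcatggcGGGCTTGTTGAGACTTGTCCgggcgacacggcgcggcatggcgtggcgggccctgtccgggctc
Ppm1d, chr11:85311004-85311253, plus strand: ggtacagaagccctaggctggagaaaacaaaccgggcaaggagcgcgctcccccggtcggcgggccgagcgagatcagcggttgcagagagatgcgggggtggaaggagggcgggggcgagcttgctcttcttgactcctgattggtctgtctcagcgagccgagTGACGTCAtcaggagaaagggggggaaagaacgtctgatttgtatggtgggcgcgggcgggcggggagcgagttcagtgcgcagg
The Ccng1 and Ppm1d sequences end at the base before the annotated start, and the Rps27l sequence is centred on the p53 summit with 50 bases on either side.

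Mdm2 (chromosome 10, 117688875 to 117710758, minus strand) had a p53 peak outside the gene. The peak (117717519 to 117717874) was enriched 26.0-fold over the caller's local background (−log10 q 86.1), and 98 reads were recovered at its summit (exact Poisson 95% interval 79.6 to 119). The summit lay 6992 bases upstream of the only annotated Mdm2 start in the promoter table and 15928 bases from the next gene on that side, Slc35e3. The p53 sites long described for Mdm2 lie in its first intron, ahead of an internal promoter, but no p53 summit of this list lay inside the gene. The sequence under the peak was not read here, because no genome sequence of this build was used.

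The start of Mdm2 is rich in CpG yet had no TDG peak. Its promoter window held 35 CpG dinucleotides, at 1.12 times the number expected from its C and G content, which is above 98.1% of 21263 promoter windows of protein-coding genes. Capitals mark each CpG in the 250 bases before the start.
Mdm2, chr10:117710759-117711008, minus strand: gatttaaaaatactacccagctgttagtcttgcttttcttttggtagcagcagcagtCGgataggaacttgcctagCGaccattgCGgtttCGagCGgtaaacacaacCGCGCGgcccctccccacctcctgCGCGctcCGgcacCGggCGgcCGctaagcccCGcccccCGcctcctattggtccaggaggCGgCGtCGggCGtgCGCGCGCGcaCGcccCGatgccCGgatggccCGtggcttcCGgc
The nearest TDG summit to Mdm2 was 4386498 bases away, at Rxylt1. Mdm2 lay in a stretch of 10.8 Mb between TDG summits. That stretch held 64 whole protein-coding genes, Mdm2 included, and 1 p53 peak, that of Mdm2. It ranked 15 by length and 22 by genes held among 3378 intervals between TDG summits. Counted by gene, 7.01% of all protein-coding genes lay farther from a TDG summit than Mdm2. On chromosome 10 the share was 2.80%.

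Mdm4 (chromosome 1, 132986105 to 133030587, minus strand) had its p53 peak inside the gene. The peak (133020230 to 133020450) was the narrowest of the 4, at 221 bases, and was enriched 16.6-fold (−log10 q 44.5). Its summit lay 10262 bases downstream of the outer annotated start and 5091 bases downstream of the inner one. The reads recovered at the summit were 62 (exact Poisson 95% interval 47.5 to 79.5). The gene table used has no exons, so whether the summit is exonic or intronic is not stated. The nearest TDG summit was 100697 bases outside the gene, at Ppp1r15b.

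Ppm1d (chromosome 11, 85311254 to 85347071, plus strand) had a TDG peak and no p53 peak. The TDG peak (85310972 to 85311414) spanned the annotated start, with its summit 48 bases downstream of it. Its enrichment was 5.99-fold (−log10 q 8.19), from 22 recovered reads (exact Poisson 95% interval 13.8 to 33.3). The nearest p53 summit was 7144858 bases away, at Nek8. The cyclic AMP response element TGACGTCA shown above began 85 bases before the start, inside the TDG peak. This motif, whose reverse complement is the same, occurred in 4.49% of 1536 promoter windows with a TDG summit and in 2.06% of 19727 windows without one, and in none of the windows of the other 4 genes. Such a match is a description of the letters and does not show that a factor was bound. The motif itself holds a CpG, and windows with a TDG summit held a median of 25 CpG against 11 in those without. Other motifs differed too: the CCAAT box (48.8% against 37.4%) and the E-box (9.77% against 7.68%) were more frequent there, and the TATA box (3.58% against 13.3%) less. The part of CpG content in these shares was not tested.

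Ccng1 (chromosome 11, 40748552 to 40755309, minus strand) was the member with peaks in both lists, and the peaks overlapped at its start. The p53 peak (40755267 to 40755630) was enriched 27.8-fold (−log10 q 95.6), from 105 recovered reads (exact Poisson 95% interval 85.9 to 127). The TDG peak (40755149 to 40755482) was enriched 5.73-fold (−log10 q 7.39), from 21 recovered reads (exact Poisson 95% interval 13 to 32.1). The peaks overlapped over 216 bases, which is 64.7% of the TDG peak and 59.3% of the p53 peak. The summits were 113 bases apart. The overlap is not counted when summits must lie within 100 bases of each other, and the TDG peak itself drops out when peaks must reach the median fold enrichment of their list, which leaves 0 shared sites in either case. The libraries were separate, so the overlap does not show both proteins on the same DNA molecule. The TDG summit was the closer to the annotated start, 69 bases upstream of it, and the p53 summit lay 182 bases upstream. By distance to the nearest TDG summit, Ccng1 ranked 8 among the 126 p53 peaks, whose median distance was 62127 bases. Of the 126 p53 peaks, 16 overlapped a TDG peak, so such an overlap was not particular to Ccng1.

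Rps27l (chromosome 9, 66944624 to 66949522, plus strand) had a p53 peak across its starts. The peak (66946069 to 66946550) was the widest of the 4, at 482 bases, and covered both annotated starts of the promoter table. Its enrichment was 20.5-fold (−log10 q 61.6), from 77 recovered reads (exact Poisson 95% interval 60.8 to 96.2). The summit lay 223 bases downstream of the first start and 104 bases upstream of the second. Counted from the outermost 5′ end of the gene, the summit lay 1685 bases inside it. In humans the p53 site of this gene has been placed in its first intron. The gene table used has no exons, so whether the mouse summit is exonic or intronic is not stated. No TDG peak was assigned to Rps27l, and the nearest TDG summit was 109849 bases away, at Aph1c.

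**Figure D2:**
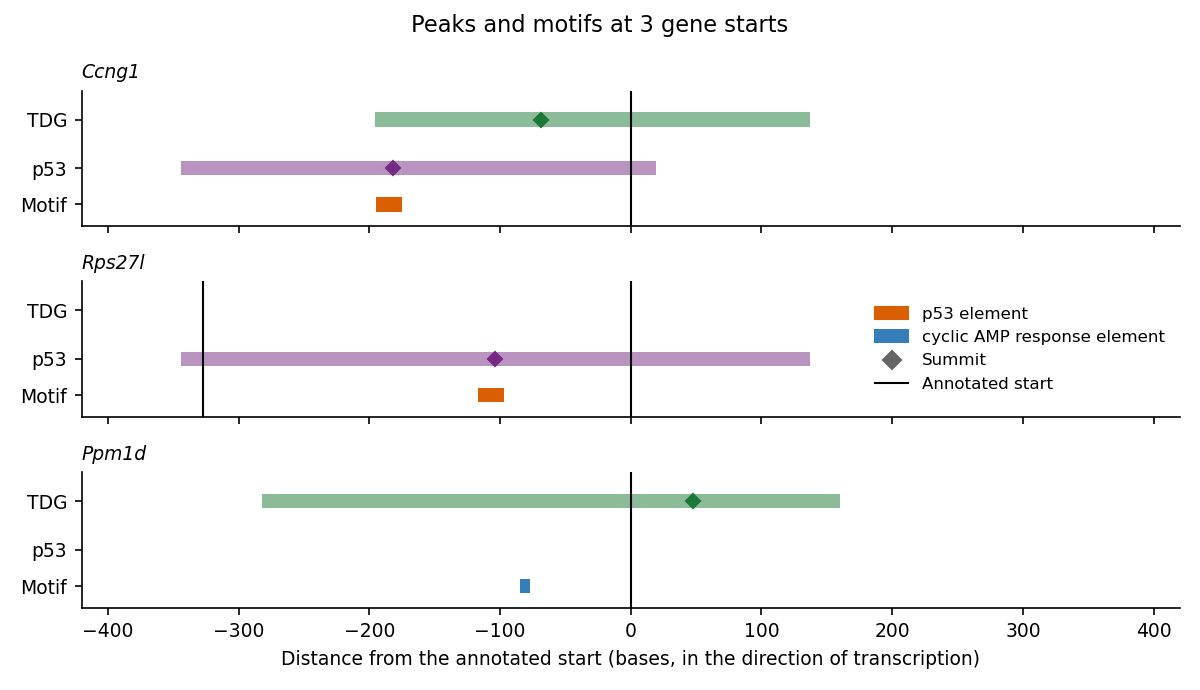
Peaks (bars), summits (diamonds) and motif matches at the starts of Ccng1, Rps27l and Ppm1d, in bases from the annotated start (the second one for Rps27l) in the direction of transcription. The p53 summits of Ccng1 and Rps27l lie within the p53 elements, while the TDG summit of Ccng1 lies 107 bases from its element.

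The best p53 elements of Ccng1 and Rps27l lay directly under the p53 summits. Each has 20 bases without a spacer and 1 mismatch to the consensus, and the mismatch falls in the first half-site of both. They are shown in capitals so that they can be compared base by base.
Ccng1 element, chr11:40755462-40755481, minus strand: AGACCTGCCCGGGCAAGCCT
Rps27l element, chr9:66946296-66946315, plus strand: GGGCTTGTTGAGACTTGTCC
The elements had 8 of 20 bases in common, among them the C and G that the search requires in each half-site. In both genes the summit fell on base 14 of the element, counted from its 5′ end. The Ccng1 element also lay inside the TDG peak, at the edge away from the gene. Elements with at most 1 mismatch and up to 13 bases between the half-sites occurred in 4 of 11 promoter windows with a p53 summit and in 114 of all 21263 windows (0.536%). The 4 windows belonged to Ccng1, Rps27l, Cdkn1a and Inka2, and in 3 of the 4 the p53 summit lay inside the element. Without a spacer, 11 of all 21263 windows held an element with at most 1 mismatch. The limit of 1 mismatch was chosen after the data had been seen, and Ccng1 and Rps27l are themselves among the 4. At the planned limit of 3 mismatches, 10 of the 11 windows held an element, against 15.2% of all windows.

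The promoter windows of the other members held weaker matches. The best match had 3 mismatches at the inner start of Mdm4, a level reached in 15.2% of all windows, and 4 at Mdm2 and Ppm1d, reached in 40.8%. The outer start of Mdm4 had only a match with 9 mismatches. These windows hold no p53 summit, and no match says only that the letters are absent from 300 bases.

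The 4 p53 peaks were of high to middling strength within their list. By fold enrichment they ranked 22 (Ccng1), 25 (Mdm2), 35 (Rps27l) and 49 (Mdm4) of 126, and all 4 were above the list median of 13.5-fold. All 4 lie at the same background, where recovered reads follow directly from fold enrichment, so the order in reads is the same by construction. The intervals of neighbours in that order overlapped. The interval of Mdm4 overlapped that of Rps27l but not those of Mdm2 and Ccng1. These intervals cover counting error only and say nothing of the spread between cultures. The fold enrichments are the authors' own values and rank peaks within 1 list.

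**Figure D3:**
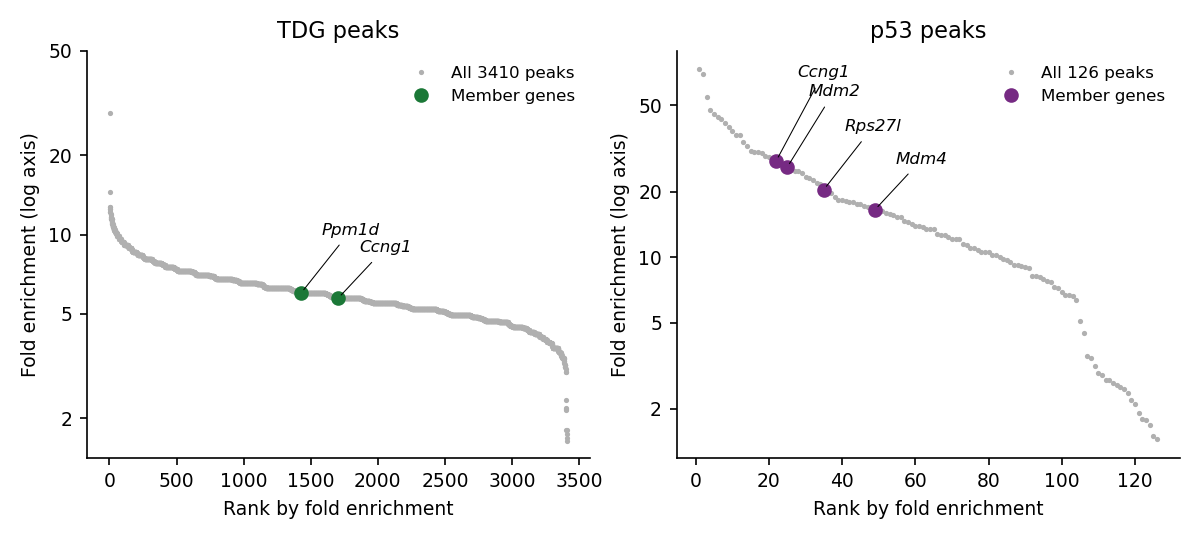
Fold enrichment (log axis) of all 3410 TDG peaks and all 126 p53 peaks by rank, with the peaks of the member genes in colour. Ppm1d and Ccng1 lie in the flat middle of the TDG list, while the 4 p53 peaks lie on the upper part of the p53 curve.

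The 2 TDG peaks were ordinary members of theirs. Ppm1d ranked 1429 and Ccng1 1706 of 3410, on either side of the list median of 5.74-fold. They differed by 1 recovered read, far less than the counting error, and so did not differ beyond it. At the genome-wide background, where 1627 of the TDG peaks lie, fold values come in steps of 1 read. In the whole list, 175 TDG peaks had exactly the value of Ppm1d and 165 that of Ccng1. Called TDG peaks at the genome-wide background had at least 15 reads at the summit, and p53 peaks at least 28. These are the lowest counts among listed peaks at that background and not limits of detection, since the calling threshold is not known. The lowest −log10 q of any listed peak was 3.02 for TDG and 3.74 for p53. A TDG signal too weak to call at Mdm2, Mdm4 or Rps27l, or such a p53 signal at Ppm1d, is not shown to be absent.

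**Figure D4:**
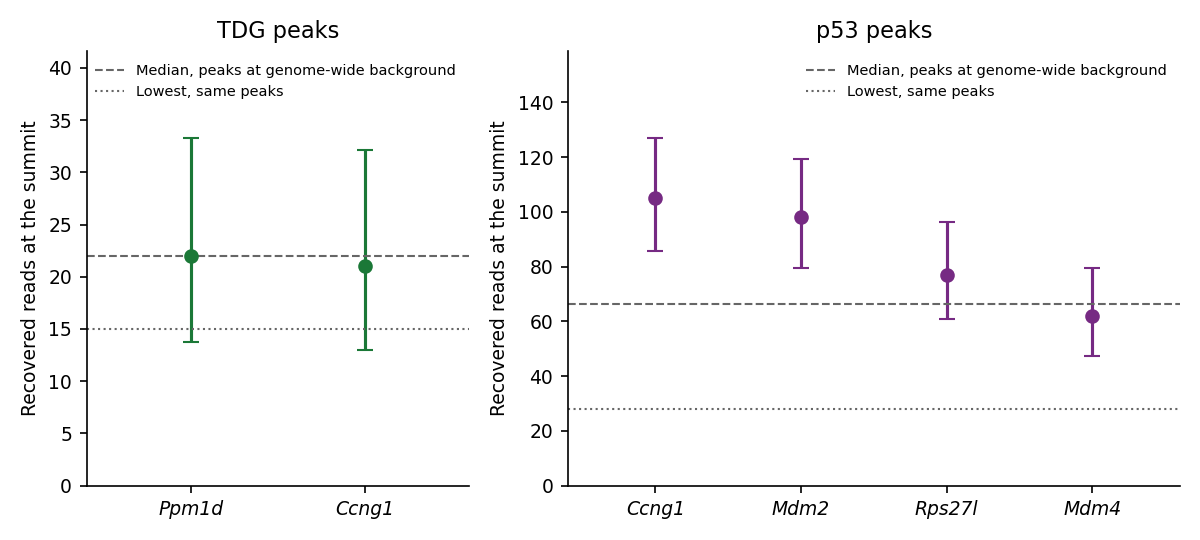
Reads recovered at the summit of each member peak (points) with exact Poisson 95% intervals (bars), for TDG on the left and p53 on the right, each on its own scale. The dashed line is the median (22 reads for TDG, 66.5 for p53) and the dotted line the lowest value (15 and 28) of the 1627 TDG and 64 p53 peaks at the genome-wide background. The TDG intervals of Ppm1d and Ccng1 nearly coincide, and the p53 values step down by overlapping intervals from Ccng1 to Mdm4.

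TDG peak density differs between chromosomes, and the 2 members with a TDG peak share chromosome 11. There a TDG peak was assigned by the same rule to 24.3% of 1609 protein-coding genes. The shares on the chromosomes of the other members were 17.5% on chromosome 1 (Mdm4), 14.9% on chromosome 9 (Rps27l) and 13.3% on chromosome 10 (Mdm2). The part of the chromosome in the members' TDG peaks was not tested.

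By CpG content, the members with a TDG peak lay within the range of those without. Windows with a TDG summit had a median CpG ratio, observed over expected, of 0.827, against 0.520 in windows without one. The ratio was 0.957 at Ppm1d but only 0.603 at Ccng1, lower than in all but 10.3% of windows with a TDG summit. Among members without a TDG peak, Mdm2 had 1.12, the starts of Rps27l 0.767 and 0.862, and those of Mdm4 0.489 and 0.306. These are few windows, and the part of CpG content in the members' TDG peaks was not tested.

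**Figure D5:**
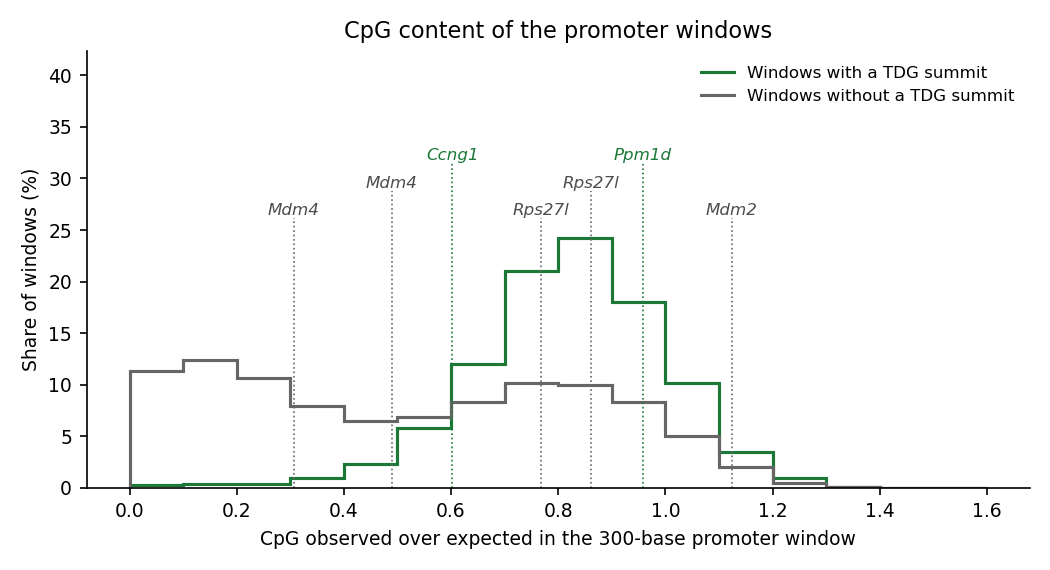
Distribution of the CpG ratio (observed over expected) over 1536 promoter windows with a TDG summit and 19727 without one, as the share of windows per bin of 0.1. Dotted lines mark the 7 windows of the 5 genes, in green where the window holds a TDG summit. Ccng1 lies at the low side of the windows with a TDG summit, and Mdm2, without one, lies beyond most of them.

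The genes around the feedback loop were taken from 9 lists of p53 regulators and relatives of the members. Together these lists held 80 genes besides the 5. Of these, 23 (28.8%) had a TDG peak, with a median fold enrichment of 6.72, against 14.8% and 5.99 over all protein-coding genes. A p53 peak was assigned to 2 of the 80 (2.5%), against 0.512%. Those were Trp53inp1 (39.6-fold), which promotes p53 activity, and Zmat3 (36.7-fold), which encodes an RNA-binding zinc finger protein. Both came from the list of other p53 feedback genes, which were named as parts of the p53 response. All the lists were chosen with earlier results of these data known, so their shares are descriptions. No test was made over these lists.

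Several genes for partners of cyclin G1 and for targets of the Ppm1d phosphatase had TDG peaks. The share over all protein-coding genes, 14.8%, is the background for each of these counts. Of 9 PP2A subunit genes, 5 (55.6%) had a TDG peak, among them the regulatory subunits Ppp2r5c (9.11-fold) and Ppp2r5d (9.03-fold) and the catalytic subunit Ppp2ca (8.66-fold). Of 8 genes for kinases and proteins that Ppm1d opposes, 5 (62.5%) had one, led by Mapk14 (8.01-fold), which encodes the stress kinase p38 alpha, Atm (6.77-fold) and Prkdc (5.73-fold), which encode DNA damage kinases. Among the 12 genes of the PPM phosphatase family, 4 (33.3%) had a TDG peak, namely Ppm1b (8.10-fold), Ppm1k (6.77-fold), Ppm1d itself and Ppm1a. None of the genes of these lists had a p53 peak. The share over all protein-coding genes was only 0.512%, so most lists this short would hold none.

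Peaks at other regulators of Mdm2 and p53 were counted in the same way, against the same 14.8%. The shares with a TDG peak were 13.3% of 15 other feedback genes, 8.33% of 12 ribosomal and nucleolar proteins that bind Mdm2 and 20% of 10 genes for acetylation and other p53 modifiers, so the counts of these lists were near the background. Of 11 p53 ubiquitin ligases and partners, 3 (27.3%) had a TDG peak and none of these was Mdm2 or Mdm4, the highest being Trim24 (8.73-fold). Of 6 deubiquitinases, 2 (33.3%) had a TDG peak, Usp4 (5.99-fold) and Otub1 (4.18-fold). Among the ribosomal and nucleolar proteins, the nucleolin gene Ncl (4.10-fold) had a TDG peak and Rps27l the only p53 peak. Among the modifiers, Kmt5a (6.25-fold) and Ep300 (5.99-fold) had a TDG peak. Among the other feedback genes, Sesn1 (8.07-fold) and Trp53inp1 (4.95-fold) had one. The 6 closest relatives of the members, among them Ccng2 and Rps27, had no peak of either kind. Over all protein-coding genes the shares were 14.8% for TDG and 0.512% for p53.

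The genes most like each member were found by the distance of their highest fold enrichments on a log2 scale, over the 2 libraries for Ccng1 and over the p53 library for the rest. For Ccng1 the nearest of 30 genes with both kinds of peak was Nfe2l2 (28.6-fold for p53 and 5.83-fold for TDG), at a distance of 0.05, followed by Gpr157 (23.4-fold and 5.73-fold) at 0.25. Among 78 genes with a p53 peak only, Mdm2 was closest to Pxylp1 (25.2-fold) and Aen (25-fold). Rps27l was closest to Sp3 (21.8-fold) and Ccr4 (22.1-fold), and Mdm4 to Trcg1 (16.6-fold) and P2ry6 (16.3-fold). Each likeness rests on 1 value per library, and counting error alone moves the members over many ranks. Within it, Mdm2 would rank 15 to 35, Rps27l 26 to 52 and Mdm4 35 to 67 of the 126 p53 peaks. The TDG peak of Ccng1 would rank 173 to 3344 of 3410. Many other genes are therefore as close within that error. For Ppm1d no such gene is named, since its value was shared by so many TDG peaks.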

How the data were processed

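ChIP-seq peak lists of 2 B16 libraries were used. The submitters' processing notes name mm10 and, with no versions or roles, MACS2, Bowtie2, Trim Galore, Picard, ChIPseeker and deepTools. For the control library and the calling threshold, nothing was given in the sources used here. The authors deposited 1 list per library, with a fold enrichment (a ratio), a −log10 p and a −log10 q for each summit. The score the authors deposited is the whole part of 10 times the −log10 q in all 3410 TDG and 126 p53 peaks.

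Library totals are unknown. Summit reads were recovered from fold enrichment and p by the MACS2 formulas, with genome-wide backgrounds of 2.558 and 2.028 reads and scales of 0.924 and 0.7924 for TDG and p53. Both were estimated from the lists themselves, the scale as the value that brought the reads closest to whole numbers. The reads then came out whole, within 0.05, for 99.6% of 1627 TDG and 100% of 64 p53 peaks at those backgrounds, among them all 6 member peaks. Since the scale was fitted to this end, that is no independent check. This step was tested on data simulated with the same formulas, which cannot show whether the formulas hold for these lists.

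Gene ends came from RefSeq (GRCm38.p6), and starts, strands and sequences from its promoter windows, held for 17492 of the 21887 genes. The p53 element was a pair of decamers of the p53 consensus, 0 to 13 bases apart, with at most 3 mismatches and none in the C and G of the core, and reads the same on both strands. TGACGTCA, the limit of 1 mismatch and the stretches between TDG summits were chosen after the data had been seen. The members and gene lists were chosen with earlier results of these data known. Named were the 5 members, up to 3 genes per list and the 2 genes most like each member with a p53 peak. Ppm1a, Ccng2, Rps27, Cdkn1a, Inka2 and the genes at nearest peaks were added after their values were seen. Python 3.11.15, NumPy 2.4.6, SciPy 1.17.1 and pandas 2.3.3 were used.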

Additional observations from a re-analysis of the deposited data

How the results depend on the processing

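Of 38 values recomputed under other settings, 31 kept within 1.5 times their main value, or within the counting error of a rank. Keeping the peaks not below the median of each list by fold enrichment left 1 member with a TDG peak (Ppm1d), 7.96% of all genes with a TDG peak, 15 list genes with one and 0.274% of all genes with a p53 peak. It also left 0 members with a shared site, since Ccng1 fell just under the TDG median, while all 4 p53 peaks stayed. Requiring summits within 100 bases gave 0 shared sites, since those at Ccng1 were 113 bases apart. With at most 4 mismatches, all 5 members held a p53-like sequence, against 3 with at most 3 mismatches and 2 (Ccng1 and Rps27l) with at most 2. Among all promoter windows the shares at these limits were 40.8%, 15.2% and 3.77%, and Mdm4 and Rps27l have 2 windows each. The assignment of p53 peaks by 10 kb or by the nearest end gave the same 4 members, and the 3 kb and gene-end windows the same 2 members for TDG. No paired analysis was possible because each antibody had 1 library. For the same reason no replicate could be left out, and the depth is known only through the recovered reads.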
